A study of Mus musculus with 35 samples.

Results

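Clta, Pigo, Creb3, Aqp11, Glo1, Cryz, Dcp1a, Ate1, Fhdc1 and Mb21d2 are 10 genes, of 18193 genes named on the array. Their mean levels in the small intestine differed between wild-type and PPARα-null mice, although in some of them the ranges of the genotypes overlapped. The 10 genes were chosen from these same arrays as genes with a genotype difference of similar size under every agonist. They were picked as candidates for a difference between mouse substrains or between probes and as a check of the array labels. The genotype difference is therefore what chose them. It is described here array by array and carries no test. All 31 probesets with 1 of these gene symbols were taken, of 45037 on the array, and 23 of them, at least 1 for each gene, were expressed: the mean of 1 or more of the 8 groups exceeded 32, or 5 on the log2 scale. The other 8 probesets lay under that level in every group, and levels there are of uncertain size. The probeset with the largest mean genotype difference of each gene is called its parting probeset.

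The RNA came from the full-length small intestine of 35 male mice of 4 months, with 1 mouse per array (18 wild-type, 17 PPARα-null), measured on an Affymetrix whole-genome mouse array. All mice had eaten a modified AIN76A diet with olive oil for 2 weeks, were fasted for 4 h, received 400 μl by oral gavage and were killed 6 h later. WY14643, a synthetic PPARα agonist, was given to 4 mice of each genotype, EPA (trieicosapentaenoin) to 5 of each, DHA (tridocosahexaenoin) to 5 wild-type and 4 null, and OA (triolein) to 4 of each. WY14643 was given as a suspension in carboxymethyl cellulose and the fatty acids as pure triacylglycerols, so agonist and vehicle cannot be told apart when WY14643 is set against a fat, and untreated mice were not analysed here. The wild-type mice were pure bred 129S1/SvImJ and the PPARα-null mice pure bred 129S4/SvJae. Every wild-type mouse thus differed from every null mouse in substrain as well as in Ppara, and the 2 cannot be told apart in any genotype difference below.

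PPARα is a nuclear receptor that binds fatty acids and synthetic ligands and, together with RXR, switches on genes of fatty acid oxidation and transport, also in the enterocyte. The genes described here are not among its well known targets and serve other parts of the cell. Clta encodes clathrin light chain A of coated vesicles, Pigo an enzyme that adds ethanolamine phosphate to GPI anchors in the endoplasmic reticulum, Creb3 a transcription factor held in the endoplasmic reticulum membrane until it is cleaved, and Aqp11 an aquaporin of the endoplasmic reticulum. Glo1 encodes glyoxalase 1, which clears methylglyoxal with glutathione, and Cryz the quinone reductase ζ-crystallin. Dcp1a is a cofactor of mRNA decapping, Ate1 the arginyltransferase that marks proteins for breakdown by the N-end rule, Fhdc1 a formin-type regulator of actin and microtubules, and Mb21d2 a little-known protein with a Mab-21 domain.

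The genes lie on 6 chromosomes (3, 4, 7, 14, 16 and 17), none of them chromosome 15, which carries Ppara. Cryz and Fhdc1 are both on chromosome 3 and Ate1 and Aqp11 both on chromosome 7. Pigo, Creb3 and Clta lie near each other on chromosome 4, where their promoter windows span 987 kb of the mouse assembly GRCm38.p6. Promoter windows of 300 bases (250 before and 50 after a RefSeq transcript start) were found for all 10 genes, 15 windows in all. The direct repeat that PPAR and RXR bind, AGGTCA followed by any 1 base and AGGTCA again, was searched on both strands. It was in 0 of the 15 windows and in 0.0396% of the 32851 windows of all genes. The single unit AGGTCA, searched on both strands, was in 2 of the 15 windows, 1 of Clta and 1 of Aqp11, and in 16.3% of all windows. A match is only a match of letters in the window. The windows of the 3 neighbours on chromosome 4 and that of Aqp11 are shown because their genes carry the comparisons below. They are written 5′ to 3′ on the strand of the gene, with the unit (here on the other strand) in capitals, and come from RefSeq, GRCm38.p6: Pigo at chr4:43025765-43026064 (minus strand), Creb3 at chr4:43562408-43562707 (plus), Clta, upstream start, at chr4:44004193-44004492 (plus), and Aqp11 at chr7:97738198-97738497 (minus).
Pigo: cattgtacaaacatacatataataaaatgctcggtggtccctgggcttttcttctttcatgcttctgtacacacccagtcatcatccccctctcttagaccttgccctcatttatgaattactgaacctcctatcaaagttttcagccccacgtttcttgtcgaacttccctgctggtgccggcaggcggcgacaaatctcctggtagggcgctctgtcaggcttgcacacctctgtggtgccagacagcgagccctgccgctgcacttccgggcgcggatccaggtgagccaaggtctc
Creb3: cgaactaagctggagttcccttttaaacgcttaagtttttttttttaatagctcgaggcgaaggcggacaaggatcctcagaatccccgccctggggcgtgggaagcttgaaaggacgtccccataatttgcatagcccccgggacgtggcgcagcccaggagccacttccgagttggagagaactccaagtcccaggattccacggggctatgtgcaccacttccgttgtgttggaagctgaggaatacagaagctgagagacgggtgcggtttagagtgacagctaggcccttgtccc
Clta: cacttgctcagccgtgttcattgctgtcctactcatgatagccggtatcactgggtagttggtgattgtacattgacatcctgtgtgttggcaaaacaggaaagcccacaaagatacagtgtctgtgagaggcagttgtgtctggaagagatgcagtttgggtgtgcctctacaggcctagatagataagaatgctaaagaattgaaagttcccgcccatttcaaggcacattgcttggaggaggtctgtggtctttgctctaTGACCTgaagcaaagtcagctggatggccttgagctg
Aqp11: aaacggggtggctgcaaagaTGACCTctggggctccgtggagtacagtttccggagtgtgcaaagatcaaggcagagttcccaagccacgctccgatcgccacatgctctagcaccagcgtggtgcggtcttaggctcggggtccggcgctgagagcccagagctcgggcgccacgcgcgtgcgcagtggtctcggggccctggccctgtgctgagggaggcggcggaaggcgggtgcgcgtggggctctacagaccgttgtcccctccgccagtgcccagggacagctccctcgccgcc

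The labels were checked on 2 other probesets. Ppara itself ranged from 5.60 to 9.58 in 17 wild-type arrays and from 4.32 to 6.56 in 15 PPARα-null arrays, so that the genotypes overlapped over all agonists together. Within 1 agonist they were apart after WY14643, DHA and EPA. After OA they overlapped, with 5.60 to 7.09 in wild-type and 4.32 to 5.71 in null arrays. Whether the Ppara probes lie in the deleted part of the gene is not given in the sources used here. The probeset shared by the fatty acid ω-hydroxylases Cyp4a10 and Cyp4a31, a strong PPARα response, ranged from 8.15 to 12.75 in the wild-type and from 1.36 to 2.50 in the null arrays. The other 3 arrays went against their labels on it: 1.81 in wild-type EPA replicate 5, 9.91 in PPARα-null EPA replicate 5 and 10.61 in PPARα-null OA replicate 1. All arrays kept their labels, and values are given with these 3 arrays (35 arrays) and without them (32 arrays). The 7 enterocyte markers on the array were all expressed, with a summed linear level of 63400 to 75800 in wild-type and of 68400 to 80800 in null arrays. The summed level of 5 pancreatic acinar markers, all of them expressed, ran from 35.7 to 64500 in wild-type and from 676 to 66000 in null arrays. Over the 23 probesets of the 10 genes its correlation with the level (deviations from group means, 32 arrays) lay between -0.31 and 0.34. The 3′ minus 5′ signal of the Gapdh control was -0.25 to 0.01 in the wild-type and -0.24 to 0.04 in the null arrays. That of the β-actin control was larger and wider, at 0.47 to 1.25 in the wild-type and 0.57 to 1.24 in the null arrays.

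Without the 3 arrays the sign of the difference between wild-type and null mice was the same under all 4 agonists for all 23 expressed probesets. It was higher in wild-type for 15 and lower for 8, and the share of all probesets with 1 sign is not given here. Some differences lay near 0, such as 0.006 (standard error 0.097) for Creb3 1424741_s_at after DHA. For Pigo 1415992_at after EPA it was 0.039 (standard error 0.115), and -0.027 over all 35 arrays. The 2 genotypes did not overlap over the 32 arrays in 6 of the 23 probesets, where 0.436% of all 15384 expressed probesets did not overlap. Under each of the 4 agonists taken singly they were apart in 11 of the 23, where the share of all was 0.995%. Over all 35 arrays no probeset of the array was free of overlap (0%). These shares repeat the choice of the genes.

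**Figure D1:**
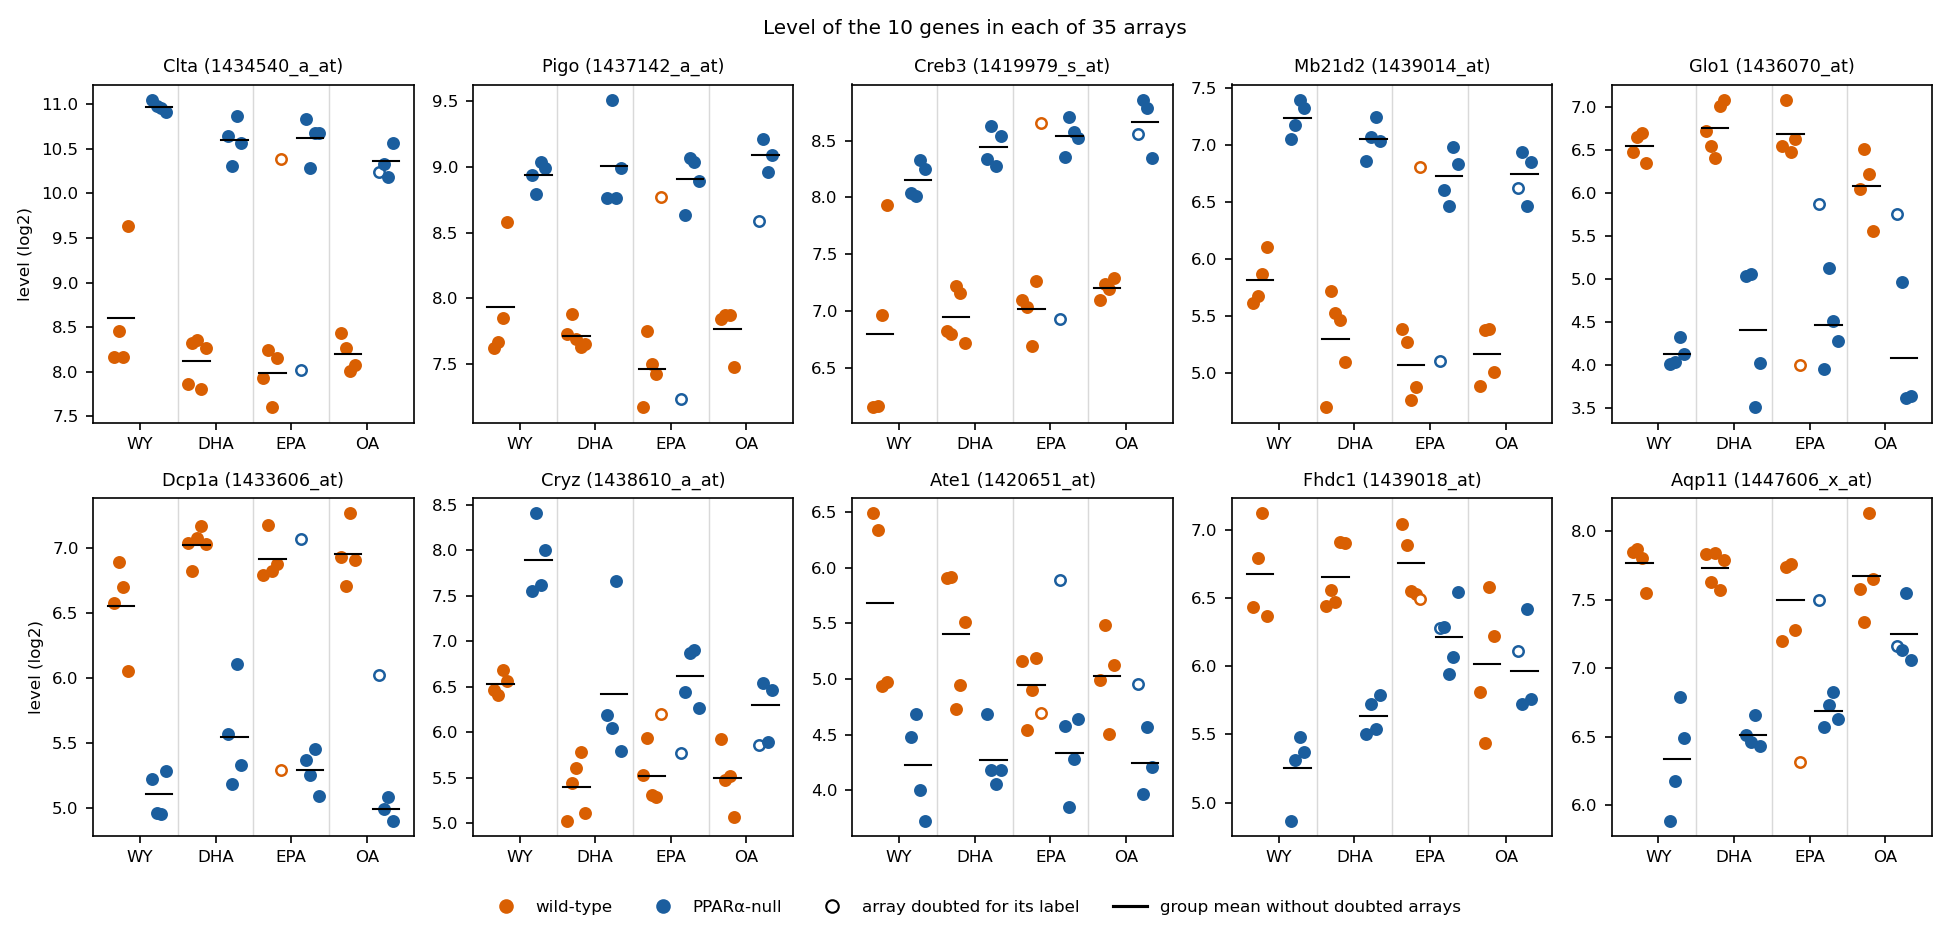
Level (log2) of the parting probeset of each gene in every array, by agonist on the x axis (WY, WY14643) and genotype by colour; open circles are the 3 arrays doubted for their labels and lines are group means without them. In Clta, Pigo, Creb3, Mb21d2 and Glo1 the filled wild-type and null points did not overlap, whereas in Fhdc1 the genotypes met under OA.

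Clta was the gene with the widest gap. Its parting probeset (1434540_a_at) read 7.60 to 9.64 in 17 wild-type arrays (median 8.16) and 10.19 to 11.05 in 15 null arrays (median 10.68). The lowest null array therefore stood 0.56 above the highest wild-type array. The difference (wild-type minus null, log2) was -2.37 after WY14643, -2.47 after DHA, -2.64 after EPA and -2.17 after OA, with standard errors of 0.20 to 0.23, and its mean of -2.42 (standard error 0.11) corresponds to a 5.33-fold lower level in wild-type mice. The smallest of the 4 differences was 0.82 of the largest. The other expressed Clta probesets moved far less: 1421062_s_at, the brighter one, differed by -0.26 to -0.05 and 1444328_at by -0.96 to -0.49.

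Its neighbours Pigo and Creb3 showed the same kind of split between their own probesets. Pigo 1437142_a_at read 7.17 to 8.58 (median 7.69) in wild-type and 8.63 to 9.51 (median 8.99) in null arrays, a mean difference of -1.27 (standard error 0.08). The ranges were only 0.04 apart. The difference ran from -1.01 after WY14643 to -1.45 after EPA, whereas Pigo 1415992_at was slightly higher in wild-type mice (0.04 to 0.27) and 1438155_x_at differed by -0.27 to -0.10. Creb3 1419979_s_at read 6.15 to 7.93 (median 7.10) in wild-type and 8.01 to 8.86 (median 8.36) in null arrays, and its 4 differences of -1.36, -1.50, -1.52 and -1.46 (WY14643, DHA, EPA and OA, standard errors 0.22 to 0.25) were the most alike of the 10 genes. The other 2 expressed Creb3 probesets pointed the other way, with 0.17 to 0.34 for 1424740_at and 0.01 to 0.24 for 1424741_s_at. In an Affymetrix name the ending _a_at marks probes shared by transcripts of 1 gene, and _s_at and _x_at mark probes that can match other transcripts. Probe sequences were not used here, and a difference in probe binding and one in transcript level cannot be told apart in these values.

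Mb21d2 has 1 expressed probeset (1439014_at). It read 4.70 to 6.11 (median 5.39) in wild-type and 6.47 to 7.40 (median 6.99) in null arrays, 0.36 apart, with differences of -1.42 after WY14643, -1.75 after DHA, -1.65 after EPA and -1.59 after OA. The mean of -1.60 (standard error 0.09) is a 3.04-fold lower level in wild-type mice.

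Glo1 and Dcp1a were higher in wild-type mice. All 4 Glo1 probesets were expressed and all 4 had the same direction under every agonist. The parting probeset 1436070_at read 5.56 to 7.08 (median 6.54) in wild-type and 3.51 to 5.13 (median 4.13) in null arrays, so that the null median lay under the limit for expression and the size of its difference is uncertain. Its differences were 2.42, 2.35, 2.21 and 2.01 (WY14643, DHA, EPA and OA, standard errors 0.29 to 0.33). The brighter probeset 1424109_a_at read 11.06 to 11.71 in wild-type and 10.38 to 11.02 in null arrays and was the sixth probeset without overlap, with a mean difference of 0.83, and those of 1424108_at and 1451240_a_at were 0.58 and 0.53. Dcp1a 1433606_at read 6.05 to 7.27 (median 6.89) in wild-type and 4.90 to 6.11 (median 5.22) in null arrays. Its difference of 1.45 after WY14643, 1.48 after DHA, 1.63 after EPA and 1.97 after OA (standard errors 0.16 to 0.18) was largest after OA, alone among these 6 genes. The other 2 Dcp1a probesets were not expressed and differed by 0.33 to 0.91.

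The other 4 genes went against the description of a difference of similar size under every agonist. Cryz 1438610_a_at differed by -1.36 after WY14643, -1.03 after DHA, -1.10 after EPA and -0.80 after OA. Aqp11 1447606_x_at went from 1.43 after WY14643 to 0.43 after OA and Aqp11 1429254_at from 1.24 to 0.57, in both with DHA and EPA in between. Ate1 1420651_at differed by 1.46, 1.13, 0.61 and 0.78 (WY14643, DHA, EPA and OA), with every null group mean under the limit for expression, so that the size of these differences is uncertain. Fhdc1 1439018_at differed by 1.42, 1.02, 0.54 and 0.04, so that its smallest difference was 0.03 of its largest. In all 4 genes the ranges of the genotypes overlapped on the parting probeset, with 5.44 to 7.12 in wild-type and 4.87 to 6.54 in null arrays for Fhdc1 and 7.20 to 8.13 against 5.89 to 7.55 for Aqp11.

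**Figure D2:**
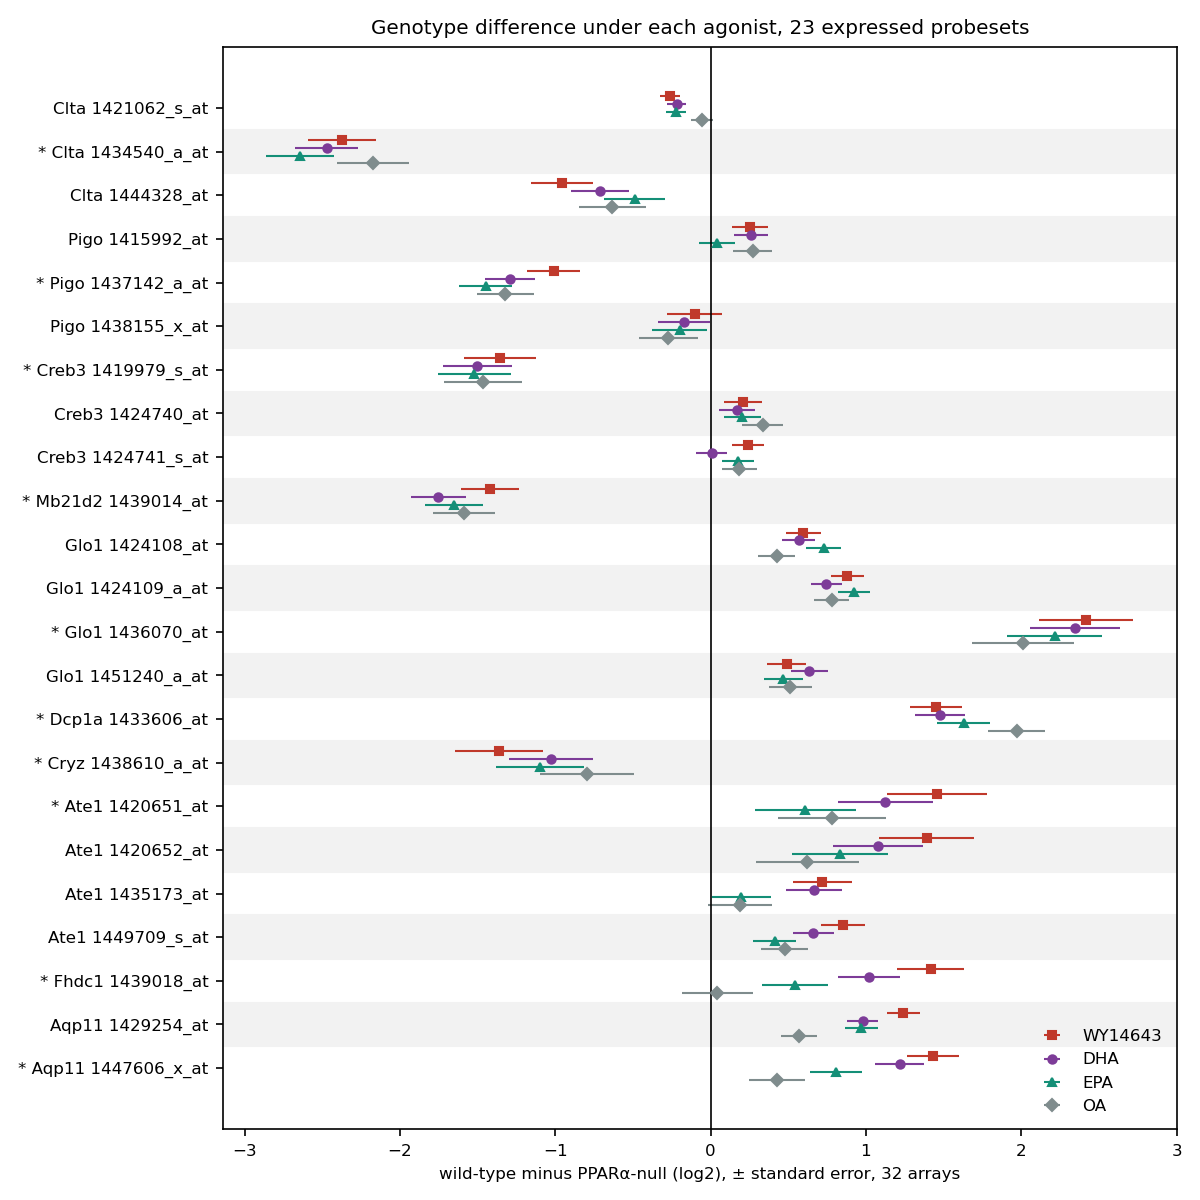
Wild-type minus PPARα-null level (log2) under each agonist for the 23 expressed probesets over 32 arrays, with the standard error of the difference as bars; a star marks the parting probeset of a gene. The 4 agonists lie close together in Clta 1434540_a_at (-2.64 to -2.17) and Creb3 1419979_s_at (-1.52 to -1.36) and spread widely in Fhdc1 (0.04 to 1.42).

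Over the 15384 expressed probesets, 56 (0.364%) differed by more than 1 on the log2 scale in the same direction under all 4 agonists without the 3 arrays. Of these, 50 were higher and 6 lower in wild-type mice, and 6 belonged to the 10 genes (Clta, Pigo, Creb3, Mb21d2, Glo1 and Dcp1a). The lower ones were the 4 parting probesets of Clta, Pigo, Creb3 and Mb21d2, a probeset shared by Fam177a and Fam177a2 (-1.75 to -1.18) and 1 without a gene name (1418701_at, -2.46 to -2.18). The smallest difference was 0.70 to 0.89 of the largest in the 6 probesets of the 10 genes (median 0.82) and 0.29 to 0.89 in the other 50 (median 0.46). The 10 most even probesets held these 6, the retinol saturase Retsat (0.69) and 3 without a gene name: 1418701_at (0.89), 1458719_at (0.88) and 1455773_at (0.87), and these 4 are named after their values were seen. The 12 probesets of 10 genes from a list of known PPARα targets, among them Acot1, a fatty acyl-CoA thioesterase, and the pyruvate dehydrogenase kinase Pdk4, had ratios of 0.29 to 0.67. Evenness was part of the choice of the genes, so this order is a description.

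**Figure D3:**
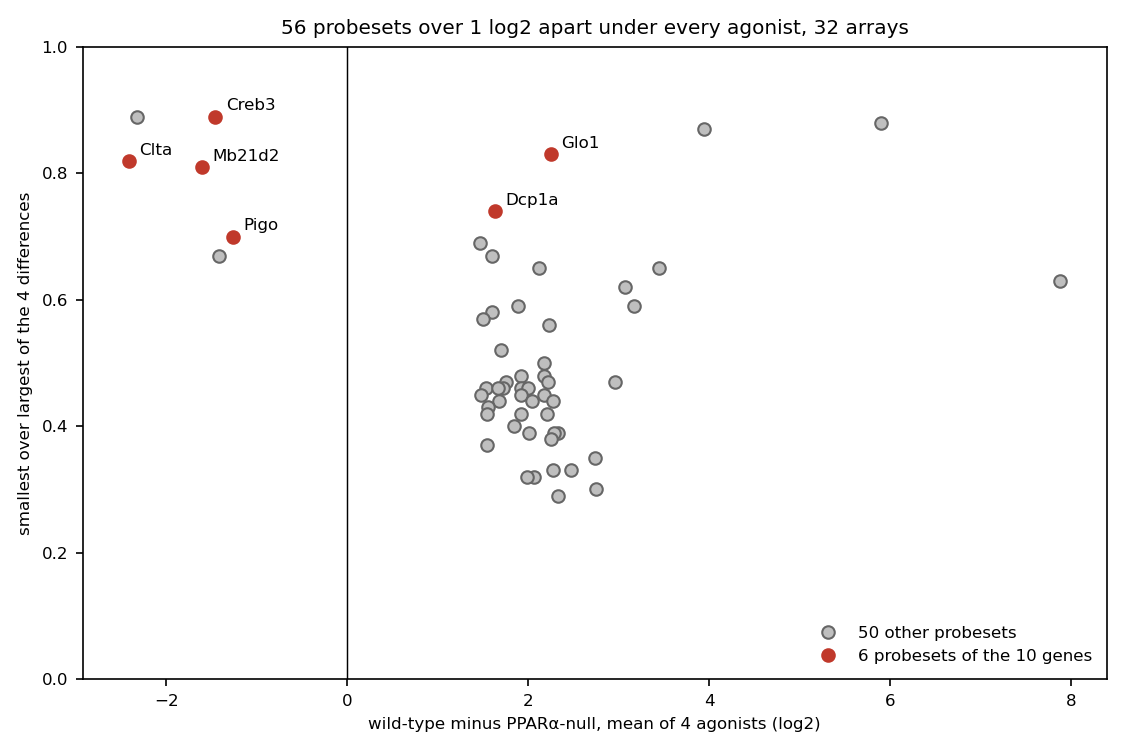
The 56 probesets with a difference above 1 (log2) in the same direction under all 4 agonists over 32 arrays, with the mean difference on the x axis and the smallest over the largest of the 4 differences on the y axis, where 1 would be a difference of the same size under all agonists. The 6 probesets of the 10 genes lie between 0.70 and 0.89, and the other 50 have a median of 0.46.

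The 10 genes did not tell the same story about the 3 doubted arrays. An array's position on a gene is given as 0 at the mean of the 15 null arrays and 1 at the mean of the 17 wild-type arrays. These means run over all agonists, so a gene that changes with the agonist can shift a position. Wild-type EPA replicate 5 stood at null levels on Clta (10.39, position 0.11), Mb21d2 (0.09), Pigo (0.17), Creb3 (-0.15), Glo1 (-0.12) and Dcp1a (0.02), but not on Fhdc1 (0.95), Cryz (0.57) or Ate1 (0.42, within the wild-type range). PPARα-null EPA replicate 5 stood at wild-type levels on Clta, Mb21d2, Pigo, Creb3, Glo1 and Dcp1a, from 0.71 on Glo1 to 1.39 on Pigo. Over all 10 genes the first stood nearer to the genotype of its label on 2 and the second on 0. Among EPA arrays, however, the second read 6.28 on Fhdc1. The EPA means without the doubted arrays were 6.21 in null and 6.75 in wild-type mice. These 2 arrays fell on the side opposite to their label both on these 6 genes and on Cyp4a10 (-0.03 and 1.00) and Ppara (-0.31 and 1.08).

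PPARα-null OA replicate 1 was divided, nearer to the genotype of its label on 7 of the 10 genes. It stood at or near null levels on Clta (10.24, position 0.17), Mb21d2 (0.20), Pigo (0.31) and Creb3 (-0.08), between the genotypes on Dcp1a (0.47) and nearer to the wild-type on Glo1 (0.65). On Cyp4a10 it stood at 1.09 and on Ppara at 0.83, and on the 12 probesets of known PPARα targets it stood between 0.52 and 1.11 (median 0.88). Thus 5 of the 6 even probesets put it nearer to the null mice, as its label has it, and 12 of 12 target probesets nearer to the wild-type. The other 50 probesets past 1 on the log2 scale include these 12. Of the 50, 39 put it nearer to the wild-type and 10 nearer to the null mice, with Sgk2 at 0.5. Those nearer to the null mice included the unnamed 1418701_at (0.11) and Fam177a (0.06).

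Another array, singled out after its values were seen, was also divided, though its label was the other genotype. Wild-type WY14643 replicate 4 read 9.64 on Clta, where the other 3 wild-type WY14643 arrays read 8.16, 8.46 and 8.16 and the null WY14643 arrays 10.91 to 11.05. It read 8.58 on Pigo (others 7.62, 7.67 and 7.85), 7.93 on Creb3 (6.15, 6.16 and 6.96), 6.11 on Mb21d2 (5.62, 5.68 and 5.87) and 6.05 on Dcp1a (6.58, 6.89 and 6.70). Its positions on these genes were 0.42, 0.31, 0.35, 0.52 and 0.49, and no other of the 17 wild-type arrays stood nearer to the null mean on any of the 5. On Glo1 (0.92), Cyp4a10 (1.25), Ppara (1.39) and the 12 target probesets (0.96 to 1.58) it stood with the wild-type. The gap between the genotypes widened without it, from 0.56 to 1.74 in Clta, from 0.04 to 0.74 in Pigo and from 0.08 to 0.72 in Creb3. It was the wild-type array nearest to the null mean on these genes, so leaving it out had to widen the gaps. Without this array 8 of the 23 probesets were free of overlap (with Dcp1a 1433606_at and Clta 1444328_at added), where the share of all was 0.481%. That count repeats the choice of the array. The cause of these positions was not tested.

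Of the 32 arrays, 16 stood nearer to their own genotype on all 10 genes, 13 on 9, PPARα-null EPA replicate 4 on 8 and PPARα-null OA replicate 3 on 7. Wild-type WY14643 replicate 4 did so on 5. These counts also use means over all agonists, and on Fhdc1 the OA means were 6.01 in wild-type and 5.97 in null mice.

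**Figure D4:**
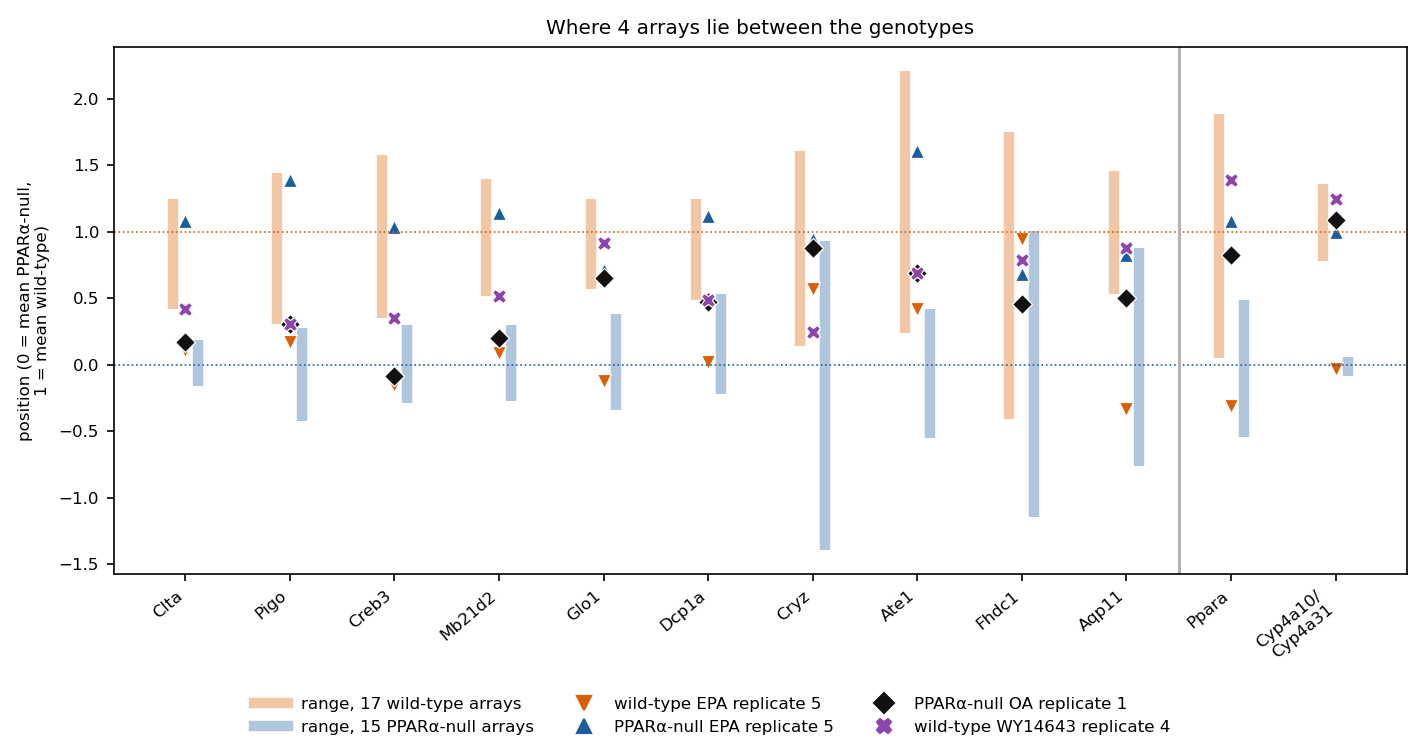
Position of 4 arrays between the mean PPARα-null (0) and mean wild-type (1) level on the parting probeset of each gene, on Ppara and on Cyp4a10/Cyp4a31, with bars for the ranges of the 17 wild-type and 15 null arrays. Both EPA arrays sit opposite to their labels on Clta (0.11 and 1.08), PPARα-null OA replicate 1 sits at 0.17 on Clta and 1.09 on Cyp4a10, and wild-type WY14643 replicate 4 at 0.42 on Clta and 1.25 on Cyp4a10.

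The agonists were compared within each genotype, which the choice of the genes did not use directly, although a difference of similar size under every agonist ties the responses of the 2 genotypes to each other. In wild-type mice 6 of the 23 probesets changed after WY14643 relative to OA (limma with Benjamini-Hochberg adjustment over all expressed probesets, adjusted p under 0.05), where 28.1% of all probesets did. In PPARα-null mice 7 changed, where 25.3% of all did. Both counts were near the share of all probesets. For EPA against OA the counts were 1 in wild-type (6.06% of all) and 0 in null mice (2.2%), for DHA against OA 1 (3.4%) and 0 (0.923%), and for WY14643 against DHA 1 (34%) and 2 (15.3%). Without the 3 doubted arrays the counts for WY14643 against OA were 7 (28.9% of all) and 6 (24.5%), for EPA 1 (5.07%) and 1 (2.28%), for DHA 1 (4.08%) and 2 (1.25%), and for WY14643 against DHA 3 (34.8%) and 2 (16.2%). The parting probesets of Clta, Pigo, Creb3, Mb21d2, Glo1 and Dcp1a were not called in any of these 8 comparisons over 35 arrays. Their 95% intervals for WY14643 against OA in wild-type mice were wide over 35 arrays, such as -0.52 to 1.34 for Clta and -0.53 to 1.45 for Glo1, and narrower without the 3 doubted arrays, at -0.03 to 0.85 and -0.17 to 1.08. For comparison, of the 26 expressed genes on the list of PPARα targets, 17 rose and 0 fell after WY14643 relative to OA in wild-type mice (33.8% of all expressed genes were called), whereas in null mice 0 rose and 12 fell (31.5% of all). Without the 3 doubted arrays 22 rose and 0 fell in wild-type mice, and in null mice 3 rose (Acadm by 0.31, Angptl4 by 1.18 and Ehhadh by 0.72) and 13 fell.

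The quinone reductase Cryz responded most, and in both genotypes. In wild-type mice it read 6.47, 6.41, 6.69 and 6.56 after WY14643 and 5.93, 5.48, 5.52 and 5.07 after OA. In null mice it read 7.55 to 8.41 after WY14643 (n = 4) and 5.86, 6.54, 5.89 and 6.46 after OA. In neither genotype did the 2 agonists overlap. Cryz rose by 1.03 in wild-type (standard error 0.30, limma adjusted p = 0.0102) and by 1.71 in null mice (0.30, adjusted p = 0.000198), and without PPARα-null OA replicate 1 and the other doubted arrays by 1.60 in null mice. It also rose relative to DHA, by 1.14 in wild-type (limma adjusted p = 0.00277) and 1.47 in null mice (limma adjusted p = 0.00306). In null mice, however, DHA replicate 3 (7.66) lay inside the range of the WY14643 arrays, where the other DHA arrays read 6.19, 6.05 and 5.80. The levels of Cryz after DHA (5.40 ± 0.32 SD, n = 5), EPA (5.66 ± 0.40, n = 5) and OA (5.50 ± 0.35, n = 4) in wild-type mice lay within their spread of each other.

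Fhdc1 moved in opposite directions. In wild-type mice it read 6.43, 6.79, 7.12 and 6.37 after WY14643 and 5.81, 5.44, 6.58 and 6.22 after OA. It rose by 0.66 (standard error 0.20, limma adjusted p = 0.0152), with 1 OA array inside the range of the WY14643 arrays. In null mice it read 4.87, 5.31, 5.48 and 5.37 after WY14643 and 6.11, 5.72, 6.42 and 5.76 after OA, without overlap, and fell by 0.74 (adjusted p = 0.00845). EPA raised it in wild-type mice by 0.69 relative to OA (adjusted p = 0.0287, lost without OA replicate 1 or 2 or EPA replicate 1), and DHA gave 0.65 with an adjusted p of 0.0624. In null mice the differences from OA were -0.37 after DHA (adjusted p = 0.473) and 0.22 after EPA (adjusted p = 0.681). Whether the response to WY14643 differed between the genotypes was not tested, because this is the difference by which the genes were chosen.

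Aqp11 changed in null mice alone among the calls, and the difference between the genotypes was not tested. The brighter probeset 1429254_at read 9.55, 9.57, 9.49 and 9.37 after WY14643 and 10.38, 9.81, 10.49 and 10.10 after OA in null mice, without overlap, and fell by 0.70 (standard error 0.20, limma adjusted p = 0.0123). Probeset 1447606_x_at fell by 0.89 (adjusted p = 0.00483). In wild-type mice 1429254_at read 10.86, 10.81, 10.61 and 10.66 after WY14643 and 10.73, 10.65, 10.59 and 10.86 after OA, with full overlap, and 1447606_x_at differed by 0.09 (95% interval -0.37 to 0.56). Without the 3 doubted arrays both probesets also fell after DHA in null mice (-0.51, adjusted p = 0.0227, and -0.73, adjusted p = 0.037), and 1429254_at after EPA (-0.61, adjusted p = 0.00284). With all 35 arrays the DHA difference of 1447606_x_at was -0.71 with an adjusted p of 0.144.

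Ate1 rose in wild-type mice after WY14643 on 2 of its 4 expressed probesets. Probeset 1435173_at read 8.30, 8.41, 8.48 and 7.75 after WY14643 and 7.55, 7.53, 7.91 and 7.12 after OA, and rose by 0.71 (standard error 0.20, limma adjusted p = 0.00855). Only WY14643 replicate 4, the array that stood between the genotypes on Clta, overlapped with the OA arrays. Probeset 1449709_s_at rose by 0.47 (adjusted p = 0.0185). The parting probeset 1420651_at differed by 0.65 with an adjusted p of 0.189, and its 4 WY14643 arrays fell apart into 6.49 and 6.34 against 4.94 and 4.97. In null mice the 4 probesets were not called.

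Creb3 fell in both genotypes, on the 2 probesets that were not its parting probeset. Probeset 1424741_s_at read 8.45, 8.43, 8.13 and 8.52 after WY14643 and 8.73, 8.92, 8.68 and 8.96 after OA in wild-type mice, without overlap. In null mice it read 8.05, 8.31, 8.14 and 8.08 after WY14643 and 8.89, 8.57, 8.84 and 8.51 after OA, also without overlap. It fell by 0.44 in wild-type (standard error 0.10, limma adjusted p = 0.00187) and by 0.56 in null mice (adjusted p = 0.000333). After DHA it fell by 0.36 in wild-type mice (adjusted p = 0.0324), a call that was lost when OA replicate 2 or 4 or DHA replicate 1, 3, 4 or 5 was left out. In null mice it was lower after WY14643 than after DHA (-0.31, adjusted p = 0.0386). Probeset 1424740_at differed by -0.48 in wild-type (adjusted p = 0.00411) and -0.40 in null mice (adjusted p = 0.0176), where it no longer passed without the 3 doubted arrays (-0.35, adjusted p = 0.0521). The parting probeset 1419979_s_at differed by -0.40 and -0.48 with adjusted p of 0.414 and 0.314.

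Clta changed on 1 probeset, and Mb21d2 and Dcp1a passed the test without the doubted arrays. The brighter Clta probeset 1421062_s_at rose by 0.30 after WY14643 relative to OA in null mice (limma adjusted p = 0.00422), with 11.02, 10.99, 11.09 and 11.16 against 10.86, 10.79, 10.59 and 10.83. Without the 3 doubted arrays Mb21d2 passed the test in wild-type mice, 0.65 higher after WY14643 than after OA (adjusted p = 0.00907) and 0.52 higher than after DHA (adjusted p = 0.0236), and Dcp1a was 0.47 lower after WY14643 than after DHA (-0.47, adjusted p = 0.024). With 35 arrays these 3 differences had the same size and adjusted p of 0.133, 0.197 and 0.269, with a standard error of 0.32 for Mb21d2 against OA where it was 0.19 without the doubted arrays.

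**Figure D5:**
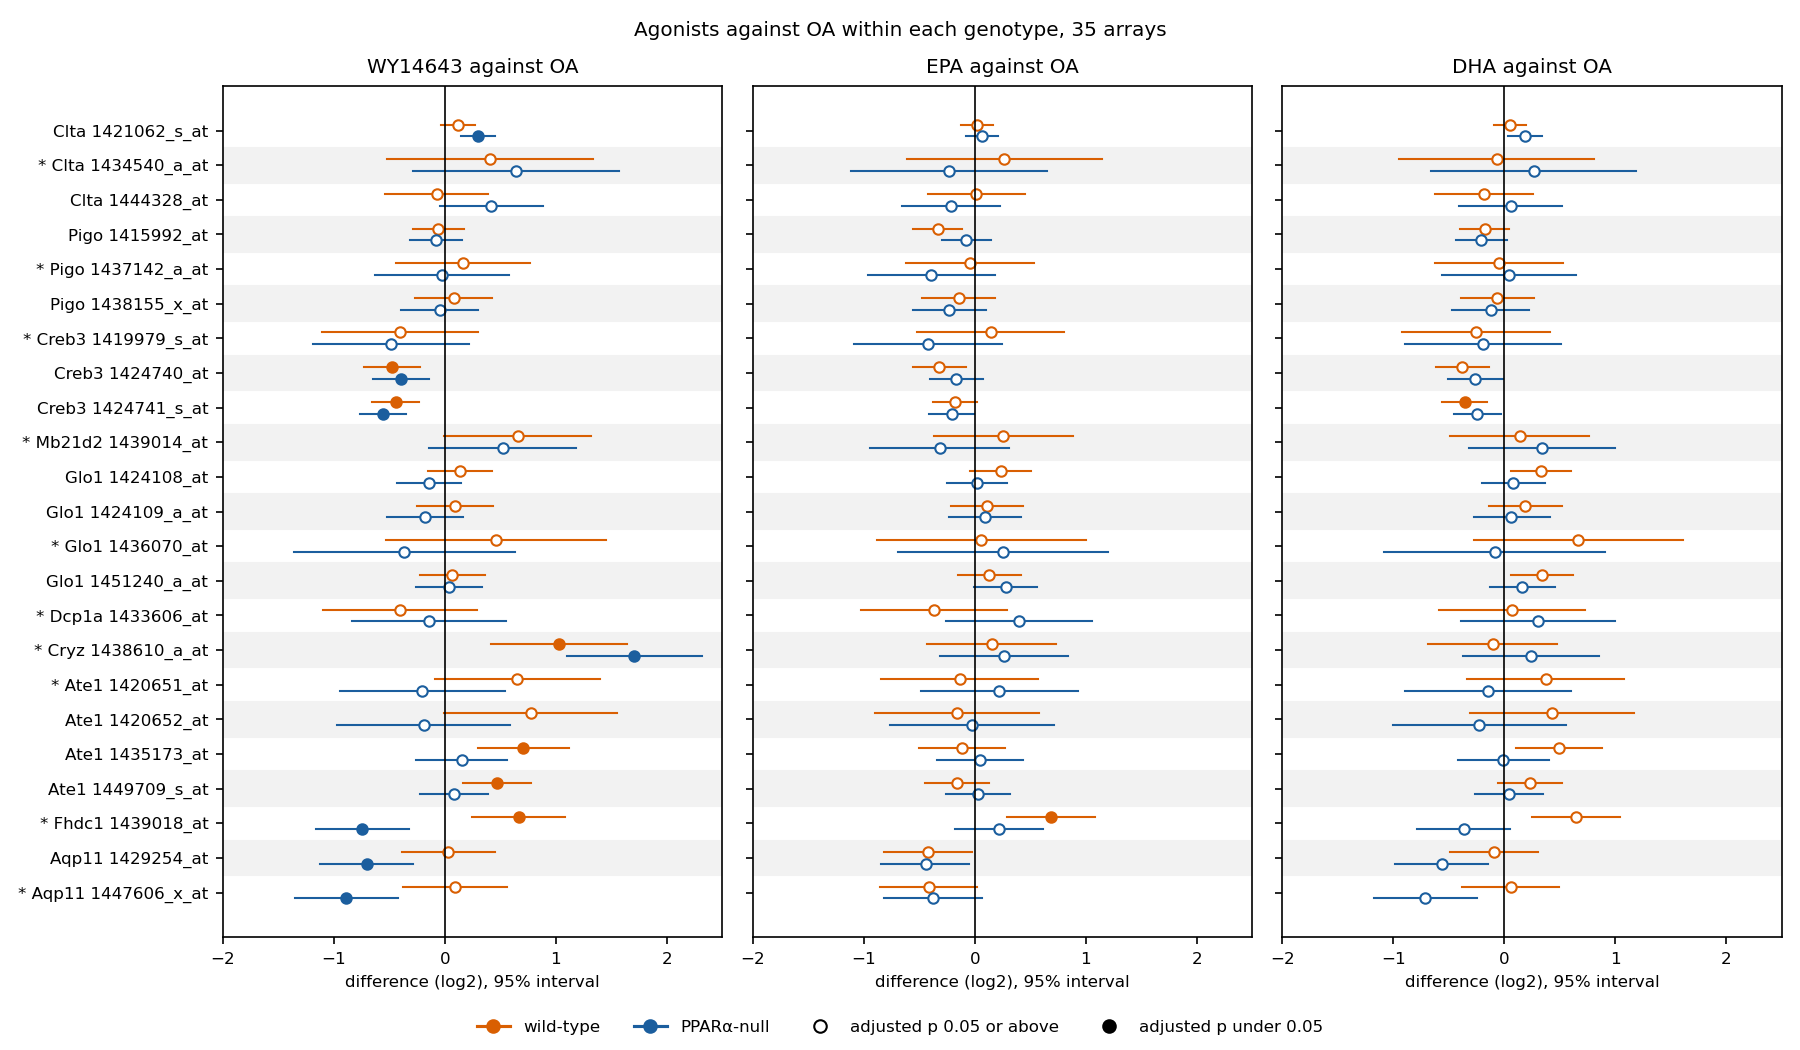
Difference from OA (log2) within wild-type and within PPARα-null mice after WY14643, EPA and DHA for the 23 expressed probesets over 35 arrays, with 95% intervals from limma; filled points have an adjusted p under 0.05 and a star marks the parting probeset. Cryz lies to the right in both genotypes after WY14643 (1.03 and 1.71), and Fhdc1 lies on opposite sides (0.66 and -0.74).

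Pancreatic acinar RNA moved with the comparisons with OA. The summed level of the 5 acinar markers was 676 to 5850 in the null mice after WY14643 and 29600 to 66000 after OA, without overlap, and 3610 to 19200 against 7710 to 37800 in the wild-type mice. In null mice the DHA arrays (5660 to 23300) and EPA arrays (2530 to 27900) also lay below the OA arrays. The part of acinar RNA in the differences of Cryz, Fhdc1, Aqp11, Creb3, Ate1, Clta, Mb21d2 and Dcp1a, the falls of Aqp11 after DHA and EPA included, was not tested. Within groups its correlation with the level (32 arrays, no test) was -0.24 for Cryz, -0.02 for Fhdc1 and -0.08 and -0.11 for the Aqp11 probesets. For Creb3 1424740_at and 1424741_s_at it was 0.24 and 0.34, and for Ate1 1435173_at and 1449709_s_at -0.26 and -0.28. It was -0.25 for Clta 1421062_s_at, -0.13 for Mb21d2 and -0.3 for Dcp1a. In bulk tissue fewer cells of a type and less RNA per cell cannot be told apart.

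The parting probesets of the 10 genes were also compared in their course over the 35 arrays, to which the choice of the genes contributes. Among themselves the genes ranged from close pairs to loose ones such as Creb3 and Cryz (Pearson r = 0.45), Ate1 and Fhdc1 (0.48) and Cryz and Ate1 (-0.49), and Creb3, Glo1, Cryz, Fhdc1 and Aqp11 were most like genes outside the 10. The probeset most like that of Clta was Mb21d2 (Pearson r = 0.95), followed by Dcp1a (-0.94). Pigo was most like Clta (0.93) and Dcp1a (-0.93), and Dcp1a most like Clta (-0.94) and Pigo (-0.93). Creb3 was most like Acot12 and the cytochrome P450 Cyp2c65 (both -0.92), Glo1 most like Nkain1 (0.92) and the malic enzyme Me1 (0.90). Aqp11 was most like the small GTPase Rab30 (0.93) and the lipid droplet protein Plin2 (0.92), and Fhdc1 most like Klf10 (0.81) and the peroxisomal Pex11a (0.80). Cryz followed H2-T18 (0.93) and, inversely, Grpel1 (-0.93), and Ate1 followed Clta 1444328_at inversely (-0.88) and Tgoln1 (0.87). Me1, Plin2 and Pex11a are on the list of PPARα targets.

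The genes around the 10 loci were examined next. Of 92 other expressed genes, up to 5 on each side of each locus, 29 were called in the genotype difference averaged over the agonists (limma, adjusted p under 0.05), or 31.5%, where 25.7% of all expressed genes were. Without the 3 doubted arrays 32 of the 92 were called, where 29.3% of all were. Over 32 arrays 0 of the 92 were free of overlap between the genotypes, where 0.436% of all probesets were. Around Creb3 6 of 9 neighbours were called. Between Pigo and Clta on chromosome 4 it was 5 of 12, all lower in wild-type mice: Reck, an inhibitor of matrix metalloproteases (-0.50, adjusted p = 0.000537), Rgp1 (-0.35, adjusted p = 0.021), Arhgef39 (-0.23), Car9 (-0.21) and Ccdc107 (-0.21). Beyond Clta, Gne, the key enzyme of sialic acid synthesis, differed by -0.45 (adjusted p = 5.53e-06) and Polr1e by 0.35 (adjusted p = 0.0391). Around Dcp1a 1 of 10 was called, Prkcd (-0.17, adjusted p = 0.00483), and around Glo1 2 of 10, Btbd9 (0.15) and Cmtr1 (0.13).

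Families and partners of the 10 genes were called about as often as any gene. Of 47 expressed genes for clathrin coats, GPI anchors, the Creb3 family, glyoxalase and quinone reductases, decapping, the N-end rule pathway, formins and aquaporins, 6 were higher and 5 lower in wild-type mice in the averaged genotype difference and 36 were not called. The median over the brightest expressed probeset of each gene was -0.03. The share called was 23.4%, where 25.7% of all expressed genes were. The largest was the glycerol channel Aqp3, with 1.60 to 2.14 on its 3 probesets (limma adjusted p at most 5.93e-07), followed by Aqp7 (0.67, adjusted p = 0.00745). Creb3l2 (0.40), Creb3l3 (0.34), Nqo1 (0.34) and Ap2b1 (0.32) were also higher. Ptgr1 (-0.35), Atf6 (-0.22), Pigp (-0.20), Hagh (-0.17) and Cryzl1 (-0.17) were lower. None of the 6 decapping, 5 N-end rule and 2 formin genes was called. Of the 26 expressed PPARα targets on the list, 26 were higher in wild-type mice, against the same 25.7% of all. The median over the brightest expressed probeset of each was 1.02.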

How the data were processed

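The authors deposited log2 expression estimates computed with GCRMA, which subtracts background, puts the arrays on a common scale and reduces each probeset to 1 value; its version is not given in the sources used here. These log2 values were used as deposited. Of 45101 probesets, 64 were controls; 34945 had 1 gene symbol in the array's annotation table. Probesets with a group mean above log2 5 (32) in at least 1 of 8 groups were tested (15384, covering 8626 genes). A linear model with 8 group means over 35 arrays was fitted with limma 3.58.1 in R 4.3.3 (intensity trend, Benjamini-Hochberg adjustment), and checked on simulated data. Error values are limma standard errors or SD between mice. The number of arrays limits the precision.

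The 10 genes, the gene lists and the tests were chosen with earlier results of these data known. Named genes were all probesets of the 10 genes, the 2 genes most correlated with each, up to 10 called neighbours (of Clta, Pigo, Creb3, Glo1 and Dcp1a) and up to 6 called members of a list. Samples were grouped by their labels. Alternatives covered the arrays used, filters, normalization, the prior, array weights, a replicate block, the methods' unadjusted p under 0.01 and each array left out. Replicate numbers were not taken to pair the mice in the main model.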

Additional observations from a re-analysis of the deposited data

Results flagged for a closer look

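Of 80 groups (10 parting probesets in 8 groups), 12 held an array whose gap to the next one exceeded Dixon's limit, and chance alone gives about 1 in 20. The 10 genes were read on the same arrays, so 1 array can be flagged on several genes and the groups are not independent. Of the 12, 11 fell on the arrays doubted for their labels. PPARα-null EPA replicate 5 stood apart on Clta (8.02), Mb21d2 (5.11), Pigo (7.23), Creb3 (6.93), Dcp1a (7.07) and Aqp11 (7.50). Wild-type EPA replicate 5 stood apart on Clta (10.39), Creb3 (8.66), Glo1 (4.00) and Dcp1a (5.29), and PPARα-null OA replicate 1 on Dcp1a (6.02). The remaining one was Pigo in wild-type OA replicate 4 (7.48, the other 3 arrays 7.84 to 7.87).

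In 3 of 30 agonist comparisons with OA every wild-type array moved one way and every PPARα-null array the other way from the OA mean of its genotype. They were Fhdc1 after WY14643 (0.66 in wild-type and -0.74 in null mice), Fhdc1 after DHA (0.65 and -0.37) and Glo1 after WY14643 (0.46 and -0.37). The last rests on the doubted PPARα-null OA replicate 1, without which Glo1 in null mice differed by 0.05, and both Fhdc1 comparisons kept their direction (-0.71 and -0.33 in null mice). The difference between the genotypes was not tested.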

How the results depend on the processing

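Counts are of the 23 probesets. Leaving out the 3 doubted arrays, 2 were called for DHA against OA in null mice (0 with all arrays), 1 for EPA against OA in null mice (0) and 3 for WY14643 against DHA in wild-type mice (1), and 6 were free of overlap (0), or 8 without wild-type WY14643 replicate 4 too, an alternative chosen after seeing the data. For DHA against OA in wild-type mice (1) the count was 0 with no filter, 2 with only the groups compared, 3 with array weights and 3 at an unadjusted p under 0.01, and in null mice 2 at that unadjusted p. For EPA against OA in wild-type mice (1) it was 0 with no filter, 2 with no intensity trend, 0 with only the groups compared, 2 with array weights and 3 at the unadjusted p. For WY14643 against DHA it was 0 in null mice (2) with only the groups compared and 4 with array weights, and 3 in wild-type mice (1) under each of these. Leaving out 1 array at a time gave 4 to 6 for WY14643 against OA in wild-type (4 without OA replicate 2) and 4 to 7 in null mice (4 without null OA replicate 3), 0 to 2 and 0 to 0 for DHA against OA, 0 to 1 and 0 to 1 (1 without null EPA replicate 5) for EPA against OA, 1 to 2 (2 without WY14643 replicate 4) and 1 to 2 (1 without any of DHA replicates 1, 2 and 4 and WY14643 replicates 1, 3 and 4) for WY14643 against DHA, 10 to 13 called family genes and 14 to 18 called target genes. The mean genotype difference of Glo1 was 1.09 on log2 of the linear value plus 32 (1.94 as deposited) and that of Ate1 0.41 (0.86), since adding 32 shrinks low levels. No mean genotype difference of the 10 genes changed sign.

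Replicate numbers were not taken to pair the mice: 6 of 17 wild-type and null pairs had a correlation above 0.1. It was 0.286, 0.341, 0.552 and 0.092 in the WY14643 pairs and -0.244 to -0.047 in the OA pairs. Between different groups, the median was 0.064 for arrays of the same number and -0.027 for arrays of different numbers. With a replicate block 6 and 7 probesets were called for WY14643 against OA in wild-type and null mice, 1 and 2 against DHA, 1 and 0 for DHA and 1 and 0 for EPA against OA, 11 family genes and 16 target genes (17 without it).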
